A study of Mus musculus with 2 samples.

Results

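Ccr9-high CD4+ thymocytes were examined in a single-cell RNA profile of sorted regulatory T (Treg) lineage cells from the mouse thymus. A cell counted as a member when it had at least 2 unique molecular identifiers (UMIs, counted mRNA molecules) of Ccr9 and passed 4 limits. These were 0 UMIs of Foxp3, 0 of Il2ra, at most 1 of Tnfrsf9 and 0 of Mki67 and Top2a together. Cells had at least 500 genes, at most 10% mitochondrial UMIs and at least 80% of their hashtag UMIs from a single hashtag. The rule chose 346 of 4453 cells that carried a single genotype hashtag (7.77%), and 346 of the 1986 cells that passed the 4 limits (17.4%). The members were thus selected on measured UMIs of 6 genes, and the levels of those genes are a description and support nothing.

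The cells came from 2 mice, 1 per genotype. The Lta-/- mouse (labelled Foxp3eGFPxLta-/-) lacked Lta, which encodes the cytokine lymphotoxin alpha, and carried the Foxp3eGFP reporter. The Foxp3eGFP mouse, also C57BL/6 by its label, carried the reporter alone, so both mice have eGFP in cells that use the Foxp3 promoter. The labels used here do not state age, sex or litter. Thymocytes depleted of CD8+ and CD11c+ cells were sorted as CD4+CD8-CCR6-CD3e+ cells with CD25, eGFP or both, 20000 per genotype, hashtagged and captured together. CD25 is the protein of Il2ra, so every cell had passed a gate on CD25 or eGFP protein. A cell with 0 UMIs of Foxp3 and Il2ra is therefore not a cell without either protein. With 1 mouse per genotype and no replicate, no test was made. Intervals are exact, at 95%, and cover counting error only, not the spread between mice or cells.

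Developing T cells leave the CD4+CD8+ stage by turning down one coreceptor, and CD4 single-positive cells then move from the cortex to the medulla. CCR9 is a receptor for the chemokine CCL25, made by thymic epithelium, and is carried by immature thymocytes. As cells mature they take up a programme of the transcription factor KLF2, which drives the sphingosine phosphate receptor S1PR1 and thereby exit from the thymus, and they gain class I MHC. ID2 is an inhibitor of E proteins, the factors that bind the E-box sequence, and IL7R is the receptor for the survival cytokine IL-7.

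There were 201 members in the Lta-/- mouse and 145 in the Foxp3eGFP mouse. They had 1926023 UMIs in all, 1115528 of them in Lta-/- members and 810495 in Foxp3eGFP members. The median member had 5219 UMIs and 2062 genes, against 5511 UMIs and 1988 genes in the 4107 other cells. Ccr9 itself had a median of 3 UMIs per member, with quartiles at 2 and 6 and a highest value of 20. Cells with both hashtags, taken as droplets with cells of both mice, numbered 185 (3.99% of 4638) and were left out. Of these, 7 met the gene rule. A similar number of droplets with 2 cells of 1 mouse (185.02 expected) stayed in the 4453 and could not be found. All barcodes came from 1 capture.

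The label of immature CD4 cells was set beside its marker genes. These were chosen with earlier results of these data known, so their levels describe the label and do not test it. Cd3e was detected in 96.0% of members and Cd4 in 73.4%, against 95.01% and 58.2% of the other cells. Of the 5 markers other than Ccr9 (Id2, Il7r, Itm2a, Cd24a and Sox4), at least 3 were detected in 66.2% of members and in 23.3% of the other cells. With each cell thinned to 3000 UMIs, those shares were 52.1% and 10.4%. Itm2a was found in 88.7% of members, Sox4 in 70.8%, Il7r in 64.7% and Id2 in 53.5%. Among the other cells these shares were 63.6%, 45.8%, 34.1% and 18.9%. Cd24a, whose surface protein is high on immature thymocytes, was found in only 16.5%, so it marks few of these cells. In S1pr1-high cells, which passed the same limits with 0 Ccr9 and at least 2 S1pr1 UMIs, Cd24a was found in 1.54% at a median of 5004.5 UMIs. Tnfrsf9-high cells had at least 2 Tnfrsf9 UMIs, 0 of Mki67 and Top2a and fewer than 2 of Ccr9. After thinning, these had Itm2a in 68.6%, Sox4 in 55.4% and Cd24a in 12.4%, against 83.5%, 55.7% and 9.88% of members. For Il7r and Id2 the thinned shares were 7.30% and 6.89% in Tnfrsf9-high cells, against 59.0% and 44.0% of members.

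Among the members, 3 stood apart. All 3 were Lta-/- cells, with 38, 25 and 5 UMIs of Siglech, a lectin gene of plasmacytoid dendritic cells. They had 1, 1 and 0 UMIs of the T cell receptor constant and Cd3 genes together, and 30, 11 and 12 UMIs of Tcf4, an E protein gene of that lineage. They held all 68 Siglech, 17 Klk1 and 6 Spib UMIs of the members, 172 of the 214 of Tyrobp and 70 of the 83 of Irf8. No Siglech UMI was found in the 4107 other cells, so at most 0.0730% of such cells would hold a UMI by the limit of 3 counts, which is not a limit on cells that express the gene. Results that rest on these 3 cells are given with and without them. They were not the only members with markers of other cell types. A wider filter that left out cells of other types kept 164 of the 201 Lta-/- members and 123 of the 145 Foxp3eGFP members. Of the marker lists, that of CD4+CD8+ thymocytes had at least 3 genes detected in the most members, 35. The myeloid and dendritic list came next, with 5. Members left out by the filter need therefore not be contaminants. The main results keep all 346 members.

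Ccr9 lies on chromosome 9 at 123767211 to 123783457 (GRCm38). The nearest gene before it in the RefSeq table is Lztfl1 (123694404 to 123717625), 49.6 kb away, which was also among the genes with the highest ratios in the members. Itm2a, a membrane protein gene induced at positive selection, lies on chromosome X at 107397195 to 107403360. The promoters of these 3 genes are shown because the genes had high levels together and because Id2, also high in the members, acts on E proteins. Each run is from RefSeq (GRCm38.p6), 5′ to 3′ on the gene's strand, from 250 bases before the start to 50 after it. Capitals mark the E-box CANNTG, which reads the same on both strands. The Ccr9 window is chr9:123766961-123767260 (plus strand), the Lztfl1 window chr9:123717576-123717875 (minus strand) and the Itm2a window chrX:107403311-107403610 (minus strand).
Ccr9: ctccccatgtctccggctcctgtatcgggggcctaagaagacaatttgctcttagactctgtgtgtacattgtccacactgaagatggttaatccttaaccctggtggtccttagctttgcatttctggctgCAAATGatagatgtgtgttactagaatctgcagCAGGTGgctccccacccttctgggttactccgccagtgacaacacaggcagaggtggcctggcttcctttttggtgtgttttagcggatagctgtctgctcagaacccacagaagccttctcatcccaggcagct
Lztfl1: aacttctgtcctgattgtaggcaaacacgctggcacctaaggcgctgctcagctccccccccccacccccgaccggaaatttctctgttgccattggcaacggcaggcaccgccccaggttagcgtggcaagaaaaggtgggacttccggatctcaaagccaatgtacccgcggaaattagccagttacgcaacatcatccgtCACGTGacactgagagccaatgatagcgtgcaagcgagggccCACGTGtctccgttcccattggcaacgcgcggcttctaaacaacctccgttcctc
Itm2a: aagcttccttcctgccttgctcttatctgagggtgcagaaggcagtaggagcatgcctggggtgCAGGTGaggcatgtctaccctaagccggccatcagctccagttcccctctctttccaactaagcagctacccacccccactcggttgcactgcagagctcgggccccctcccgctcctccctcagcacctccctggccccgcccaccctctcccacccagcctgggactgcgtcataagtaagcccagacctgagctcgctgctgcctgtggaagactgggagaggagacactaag
These windows held 2, 2 and 1 E-boxes. Of 32851 RefSeq promoters of the same length, 72.3% hold at least 1, with a median of 1, so the matches are common and are given as a description only.

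Against all other cells, the members had high transcript levels of Lztfl1, Chl1, Id2, Itm2a, Il7r and Satb1 in both mice. Levels are UMIs of a gene per 1000000 UMIs of the pooled cells (CPM), and ratios are given on the log2 scale. Id2 was at 408 CPM in Lta-/- members and 366 CPM in Foxp3eGFP members, against 94.4 CPM in the other Lta-/- cells and 69.4 CPM in the other Foxp3eGFP cells. Its pooled log2 ratio of members over other cells was 2.26 (2.14 to 2.38). Il7r was at 826 CPM in Lta-/- members and 582 CPM in Foxp3eGFP members, against 219 and 172 CPM in the other Lta-/- and Foxp3eGFP cells, a ratio of 1.90 (1.81 to 1.98). Itm2a was at 2437 and 1661 CPM in Lta-/- and Foxp3eGFP members, against 599.7 and 499 CPM in the other cells of those mice (1.95, 1.90 to 2.00). For all 3 genes both member pools lay above both pools of other cells. Agreement of the mice was common among genes higher by at least 1.5-fold, with the same sign in each mouse for 1163 of 1271.

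Satb1, a chromatin organiser needed for thymocyte maturation, was at 2274 CPM in Lta-/- members and 2160.4 CPM in Foxp3eGFP members. The other Lta-/- and Foxp3eGFP cells had 640.5 and 656 CPM of Satb1 (1.78, 1.73 to 1.83). Lztfl1 was at 409.7 and 336 CPM in the members of the Lta-/- and Foxp3eGFP mice, against 75.04 and 73.8 CPM in their other cells (2.35, 2.22 to 2.47). Chl1, a neural adhesion molecule gene, was at 100.4 and 83.9 CPM in the members, against 18.3 and 12.8 CPM in the other cells (2.60, 2.34 to 2.85). Its UMIs were in 28.9% of the members. Sox4, a transcription factor gene of early T cells, had a smaller ratio of 0.67, and Cd24a had 0.63. Other genes with large ratios were Acvrl1 (1.83), Nedd4 (1.76), Ckb (1.65), Gsn (1.62), Arhgef6 (1.52), Itpr1 (1.48) and Egr1 (1.45).

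**Figure D1:**
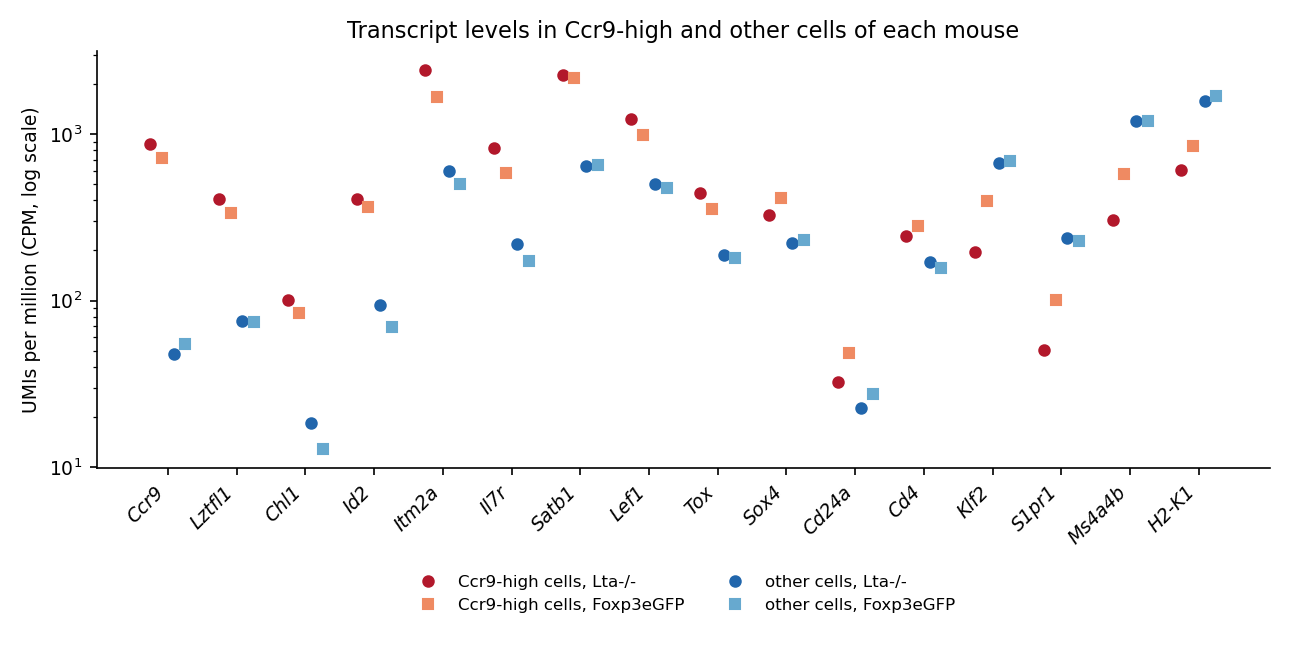
Transcript levels in CPM (log axis) of 16 genes in Ccr9-high and other cells, with 1 point for each mouse and cell class and no error bars because each is 1 pool. The Ccr9-high pools of both mice lie above the other cells from Ccr9 to Sox4 and for Cd24a and Cd4, and below them from Klf2 to H2-K1.

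A gene was called at a ratio of at least 1.5-fold with the UMIs of the 2 classes summing to 50 or more. Of 10703 genes measured against all other cells, 1271 (11.9%) were higher in the members and 1406 (13.1%) lower. Of the 1271 higher genes, 1163 had the same sign in each mouse and 646 were past 1.5-fold in each. For the 1406 lower genes these counts were 1169 and 769. The most negative ratios belonged to genes of dividing cells, such as Hist1h2ap (-5.51), Hist1h1b (-5.36) and Cks2 (-3.84), which follows from the limit on Mki67 and Top2a. The remaining low genes included Hopx (-3.63), a transcriptional cofactor gene, Rgs1 (-3.12), a regulator of G protein signalling, and the anti-apoptotic Bcl2a1d (-2.16). Against S1pr1-high cells, which passed the same limits, Hopx (-3.18) and Rgs1 (-2.81) were low as well. Bcl2a1d was not called there (-0.50, -1.29 to 0.25), and was at 11.4 CPM in members and 128 CPM in Tnfrsf9-high cells.

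The 4 limits remove cells with UMIs of Foxp3, Il2ra, Mki67 or Top2a or with more than 1 of Tnfrsf9. They do not remove every Treg-lineage cell, since Ikzf2 was detected in 43.9% of the Ccr9-zero cells. The members were next compared with these Ccr9-zero cells, the 1411 cells that passed the same limits and had 0 Ccr9 UMIs. Between these 2 sets the immature and the mature genes separated in opposite directions. The median ratio of all genes was 0.17, above 0, so ratios near that value show no shift relative to the other genes. Higher in the members were 1076 of 8749 genes (12.3%), of which 1015 had the same sign and 542 were past 1.5-fold in each mouse. Lower were 565 genes (6.46%), of which 545 had the same sign and 346 were past 1.5-fold in each mouse. The median cell had 5219 UMIs among members and 4911 among Ccr9-zero cells.

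Of the immature CD4 list, 9 of 11 measured genes were higher in the members than in the Ccr9-zero cells and 0 lower. The median ratio over the list was 0.94, beside 0.17 for all genes, of which 12.3% were higher and 6.46% lower. Itm2a was at 2111 CPM in members and 380 CPM in Ccr9-zero cells (2.47, 2.40 to 2.54). Cd24a was at 38.9 and 7.50 CPM in the same cells (2.38, 1.86 to 2.91), a far larger ratio than against all other cells. Ccr4, a chemokine receptor that draws newly selected cells to the medulla, was at 28.0 CPM in members and 5.73 CPM in Ccr9-zero cells (2.29, 1.68 to 2.91). Tox, which is required for CD4 lineage development, had a ratio of 1.09 (0.96 to 1.21), Lef1 0.94, Sox4 0.92 and Cd69, an early activation marker that holds cells in the thymus, 0.85. Themis, a signalling protein gene of positive selection, was at 0.71. Cd2 (0.39) and Myb (-0.54) were not called.

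Of the CD4 lineage list, 7 of 15 genes were higher in the members, 0 were lower and 8 were not called, with a median of 0.53, beside 12.3% higher and a median of 0.17 over all genes. Gata3, which acts upstream of the CD4 fate, was at 142 CPM in Lta-/- members and 148 CPM in Foxp3eGFP members, against 86.0 CPM in Lta-/- and 67.2 CPM in Foxp3eGFP Ccr9-zero cells. Zbtb7b, which encodes the CD4 commitment factor ThPOK, was at 71.7 CPM in Lta-/- members and 61.7 CPM in Foxp3eGFP members. The Ccr9-zero cells of those mice had 43.0 and 41.3 CPM of Zbtb7b. For both genes the 2 member pools lay above both Ccr9-zero pools. Agreement of the mice was common, since 1015 of the 1076 higher genes had the same sign in each. Pooled ratios were 0.90 for Gata3, 0.68 for Zbtb7b and 0.96 for Runx1. Tcf7 (0.51), Bcl11b (0.53) and Ets1 (0.51) were above the median of all genes but were not called. Runx3, a factor of the CD8 fate, was at 0.43, and Cd4 itself at 0.37.

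The genes of maturation and thymic exit went the other way. Of 25 measured, 17 were lower in the members, 0 were higher, and the median was -1.04, beside 6.46% lower and 12.3% higher over all genes. S1pr1, the exit receptor, was at 50.2 CPM in Lta-/- members and 101 CPM in Foxp3eGFP members, against 298 and 333 CPM in the Ccr9-zero cells of those mice (pooled ratio -2.13, -2.39 to -1.88). Klf2 was at 195 and 394 CPM in Lta-/- and Foxp3eGFP members, against 729 and 841 CPM in their Ccr9-zero cells (-1.48, -1.61 to -1.36). In both genes the Lta-/- members were the lowest pool and the member pools did not overlap with the Ccr9-zero pools. Of the 565 lower genes, 545 had the same sign in each mouse, so agreement of the mice was not particular to these genes.

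The membrane protein gene Ms4a4b was at 418 CPM in members and 1569 CPM in Ccr9-zero cells (-1.91, -2.01 to -1.81), and Ms4a6b had a ratio of -1.75. Igfbp4, a binding protein gene for insulin-like growth factor, was at 55.0 CPM in members and 292 CPM in Ccr9-zero cells (-2.41, -2.70 to -2.12). The class I MHC gene H2-K1 was at 706 CPM in members and 1821 CPM in Ccr9-zero cells (-1.37, -1.45 to -1.29), and H2-D1 had a ratio of -0.87. The class Ib gene H2-Q7, whose reads may be shared with close relatives in its family, was at -2.34. In Ccr9-zero cells H2-Q7 was at 416 CPM in the Lta-/- mouse and 205 CPM in the Foxp3eGFP mouse, so its pooled ratio mixes unlike levels. The integrin genes Itgb7 (-0.97) and Itga4 (-0.87) were lower too. Ccr7, the receptor that leads cells into the medulla, was at -0.19 and was not called. Within this list 3 of the 4 Gimap genes (Gimap4, Gimap6 and Gimap8) and Cd52 were not called either, at -0.05, 0.21, 0.39 and 0.01.

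**Figure D2:**
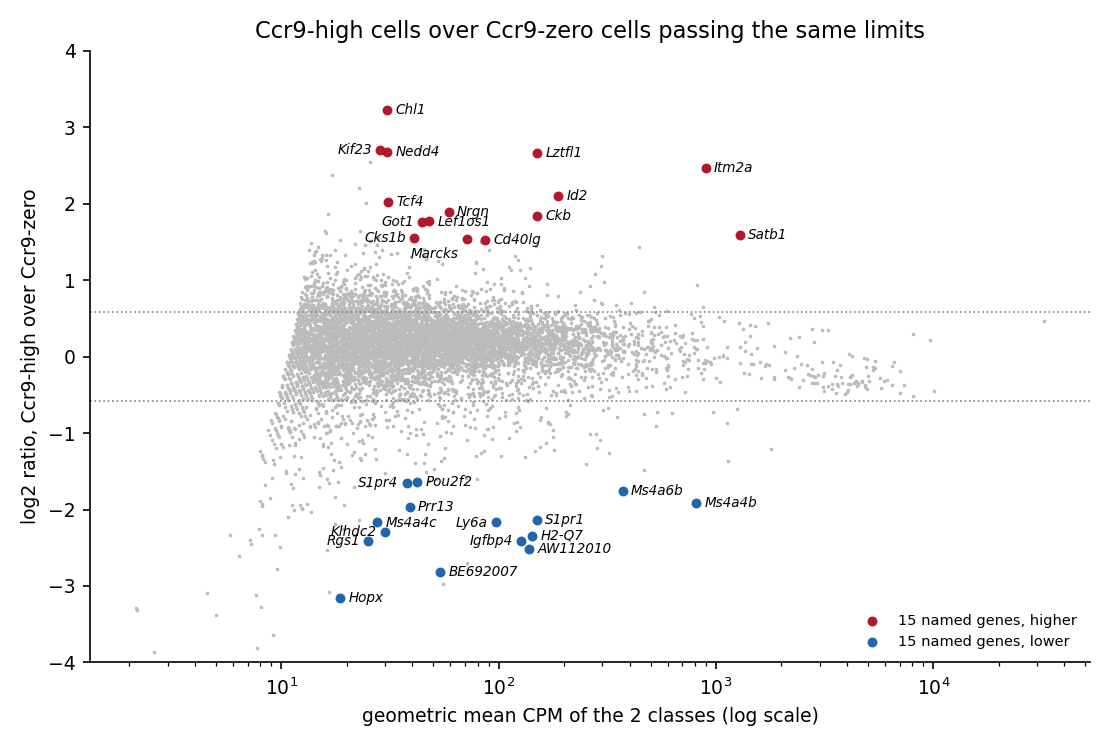
The log2 ratio of Ccr9-high over Ccr9-zero cells passing the same limits (vertical axis) against the geometric mean level in CPM (log axis), 1 point per gene with at least 100 UMIs, dotted lines at 1.5-fold. The 15 named genes of each direction, chosen above a minimum level and detection, include Chl1, Lztfl1, Itm2a and Id2 above and Hopx, Igfbp4, S1pr1 and Ms4a4b below, and 6 of 7305 genes lie beyond the axis.

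Among genes with at least 100 UMIs, and 50 CPM and detection in 10% of cells in the higher class, the leading genes over the Ccr9-zero cells were Chl1 (3.23, 2.83 to 3.64), Kif23 (2.70), Nedd4 (2.67), Lztfl1 (2.66), Itm2a and Id2 (2.11, 1.95 to 2.26). Kif23 encodes a kinesin of cell division, and it was high although Mki67 and Top2a were at 0. Ube2c (0.21) and Birc5 (0.02) of the proliferation list had few UMIs, 7 and 4 in the members. Stmn1, a microtubule regulator gene on the same list, was at 445 CPM in members and 197 CPM in Ccr9-zero cells (1.18, 1.05 to 1.30). Hmgb2 was at -0.57 and not called. Tcf4 had a ratio of 2.03 with the 3 Siglech cells and 1.21 (0.76 to 1.66) without them. Nrgn (1.89) rested on few cells, since 10 members held 78.0% of its UMIs. Ckb (1.84), Got1 (1.77), Cks1b (1.55), Marcks (1.53) and Cd40lg (1.52), the ligand for CD40 on antigen-presenting cells, completed the list with Lef1os1 (1.77) and Satb1 (1.59).

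Among genes of the IL-7 and IL-2 receptors and STAT5, Il7r was at 723 CPM in members and 269 CPM in Ccr9-zero cells (1.43, 1.33 to 1.53). Bcl2, a survival gene downstream of IL-7, had a ratio of 0.70 and Socs1, a cytokine signal inhibitor, 0.64. The other 6 called genes of the 16 measured were lower, among them Il2rb (-1.06), the STAT5 targets Cish (-1.29) and Socs2 (-1.90), and Pim1 (-1.01). Socs3 had 2 UMIs in members and 155 in Ccr9-zero cells (-4.35, -7.41 to -2.47). Of the E protein and ID protein genes, Id2 and Tcf4 were higher, while Id3 (-0.42), Tcf3 (0.33) and Tcf12 (0.34) were not called.

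T cell receptor signal genes were mixed, with 5 of 20 measured higher and 5 lower, and a median of 0.02. Over all genes 12.3% were higher and 6.46% lower. Egr1 was at 183 CPM in Lta-/- members and 196 CPM in Foxp3eGFP members, against 74.6 and 76.3 CPM in their Ccr9-zero cells (1.32, 1.13 to 1.52). Egr2 (1.25), Nab2 (1.01), Cd69 (0.85) and Bcl2l11 (0.86), which encodes the death inducer BIM, were the others that were higher. Lower were Tagap (-1.95), Xcl1 (-1.93), Ctla4 (-1.06), Nr4a3 (-0.97) and Ikzf2 (-0.79), while Nr4a1 was at 0.31. The early response genes Fos, Jun and Junb, which also respond to tissue dissociation, were at -0.43, -1.52 and -0.26.

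Treg genes other than Foxp3 and Il2ra were lower in the members than in the Ccr9-zero cells, which had 0 UMIs of those 2 genes as well. Of 14 measured, 11 were lower and 1, the receptor gene Gpr83 (0.88), was higher, beside 6.46% lower and 12.3% higher over all genes. Ikzf4 was at -1.27, Nrp1 at -1.70, Rgs1 at -2.41 and the costimulatory receptor gene Tnfrsf4 at -0.64. Interferon response genes were lower in 8 of 19 and higher in 0, with a median of -0.53. Ifi27l2a was at 1177 CPM in members and 2722 CPM in Ccr9-zero cells (-1.21, -1.27 to -1.15) and Ifit3 at -1.47, while Isg15 was at -0.16. Markers of CD4+CD8+ thymocytes were higher in 5 of 6 measured, and in 4 of 5 without the Siglech cells. Among the 5 was Dntt, at 23.4 CPM in members and 7.09 CPM in Ccr9-zero cells (1.72, 1.11 to 2.32). Rag1 had UMIs in 0.578% of the members.

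The values varied with the number of Ccr9 UMIs on both sides of the threshold. Among cells that passed the 4 limits, cells with 0, 1, 2, 3 to 4 and 5 or more Ccr9 UMIs had 380, 822, 1461, 2115 and 2610.5 CPM of Itm2a. Satb1 was at 741, 1331, 1537, 2135 and 2840 CPM in the same order. Lztfl1 was at 59.7, 163, 212, 365 and 519 CPM. Each of these genes was highest in cells with 5 or more Ccr9 UMIs. Id2 was at 90.7, 117, 320.4, 308 and 516 CPM and Il7r at 269, 275, 487, 615 and 1000.04 CPM, so both were closer to the Ccr9-zero level in cells with 1 UMI than in cells with 2.

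In the other direction, S1pr1 was at 314, 222, 154, 69.6 and 9.60 CPM over the same cells, and Ms4a4b at 1569, 1063, 830.3, 337 and 169 CPM. H2-K1 was at 1821, 1328, 979, 721 and 480.1 CPM. Klf2 was at 779, 676, 462, 214 and 193 CPM, and its last 2 values differed by mouse. Lta-/- cells had 182 CPM of Klf2 at 3 to 4 Ccr9 UMIs and 74.6 CPM at 5 or more, and Foxp3eGFP cells had 257 and 363 CPM. Klf2 was detected in 41.0% of the cells with 3 to 4 Ccr9 UMIs and in 18.5% of those with 5 or more. A single member held 67 Klf2 UMIs, where the upper quartile of members was 2. The Klf2 values without that cell were not taken, so its part in the difference by mouse was not tested. The summed maturation and exit list had 14993, 13180, 12099, 9647 and 7919 CPM, and the summed immature list 3079, 4675, 5865, 7562 and 9107 CPM. The summed interferon list had 5582, 5149, 4414, 3230 and 2339 CPM. These bins hold cells of both mice in unequal numbers, 60 Lta-/- and 50 Foxp3eGFP cells at 2 Ccr9 UMIs and 75 and 44 at 5 or more.

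**Figure D3:**
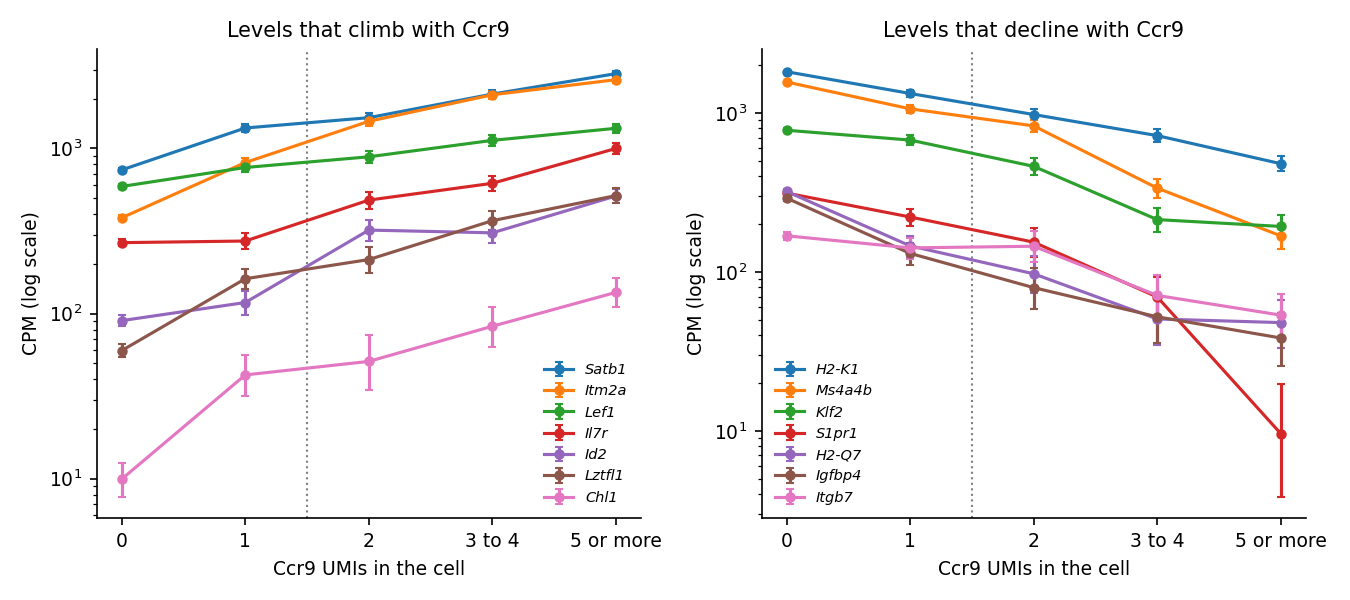
Levels in CPM (log axis) of 14 genes in cells passing the 4 limits, by Ccr9 UMIs in the cell, with exact 95% Poisson intervals and a dotted line at the membership threshold. Satb1 runs between 741 CPM at 0 Ccr9 UMIs and 2840 CPM at 5 or more, and S1pr1 between 314 and 9.60 CPM.

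Over the 1790 cells that passed the limits and had at least 3000 UMIs, counts thinned to 3000 were ranked against Ccr9 for 3610 genes. The most like genes were Satb1 (Spearman's rho 0.44), Itm2a (0.38), Lztfl1 (0.38), Malat1 (0.28), Stmn1 (0.25), Ckb (0.25), Lef1 (0.25) and Id2 (0.23). The least like were Ms4a4b (-0.38), H2-K1 (-0.38) and Ms4a6b (-0.33). All these cells share 1 capture and the values describe it.

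Among the members themselves, Id2, Itm2a and Il7r varied together. Without the Siglech cells, 332 members had at least 3000 UMIs. Over these, rho on thinned counts was 0.43 between Id2 and Itm2a, 0.35 between Id2 and Il7r and 0.36 between Itm2a and Il7r. Cd24a and Sox4 stood apart from them, with rho between -0.01 and 0.10 against those 3 genes and 0.06 between the 2. Egr1 went with Cd69 (0.41), and Klf2 went with H2-K1 (0.46) and S1pr1 (0.42). Itm2a and H2-K1 had the most negative value, -0.53.

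By raw counts, Id2 split the members into 185 cells with a UMI and 161 without. Detection also depends on the depth of a cell, and no thinned version of the split is given. This comparison was added after the values were seen. Cells with Id2 were 57.7% of Lta-/- members (50.6 to 64.6) and 47.6% of Foxp3eGFP members (39.2 to 56.0). Of 5058 genes, 344 (6.8%) were higher in the members with Id2 and 327 (6.47%) lower. Higher with Id2 were Fkbp1a (1.45, 1.21 to 1.68), a binding protein of the drug FK506, Chl1 (1.41), Itm2a (1.33), Il7r (1.26), Lef1 (0.87) and Bcl2 (0.99). S1pr1 was at 22.5 CPM in members with Id2 and 138 CPM in members without it (-2.62, -3.31 to -1.98), and Ms4a4b had a ratio of -2.14. Of the maturation and exit list, 16 of 22 measured genes were lower with Id2 and 0 higher. Of the interferon list, 12 of 16 were lower and 0 higher. Without the 3 Siglech cells, which had 0 Id2, these counts were again 16 of 22 and 12 of 16. Cd24a (-0.02) and Sox4 (0.09) were not called. Egr1 was lower in members with Id2, at -1.01.

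2 other classes were set beside the members. The 584 S1pr1-high cells passed the same limits, and 748 Tnfrsf9-high cells had at least 2 UMIs of Tnfrsf9, 0 of Mki67 and Top2a and fewer than 2 of Ccr9. Tnfrsf9 encodes the costimulatory receptor 4-1BB. Against S1pr1-high cells, 1185 of 7523 genes (15.8%) were higher in the members and 480 (6.38%) lower, with a median of all genes of 0.20. Chl1 was at 93.5 CPM in members and 3.55 CPM in S1pr1-high cells (4.72, 3.85 to 5.75) and Nedd4, a ubiquitin ligase gene, at 77.4 and 4.84 CPM, with a ratio between 3.23 and 4.87. Cd24a had a ratio of 3.75. Rflnb (-3.45), Hopx (-3.18), Emc9 (-2.97) and Cd55 (-2.72) were low in the members, and T cell receptor signal genes were higher in 9 of 17 and lower in 2.

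Against Tnfrsf9-high cells, 1227 of 8342 genes (14.7%) were higher and 1033 (12.4%) lower. Those cells were picked on Tnfrsf9, a TNF receptor gene. They were not held to the limits on Foxp3 and Il2ra, which were detected in 17.5% and 32.5% of them. Lower T cell receptor signal, NF-kB and Treg genes in the members can thus follow from how the classes were chosen, and are a description. Among the named genes the receptor for IL-7 had the highest ratio, with Il7r at 723 CPM in members and 44.6 CPM in Tnfrsf9-high cells (4.02, 3.82 to 4.23). Id2 had a ratio of 3.74 and the integrin gene Itgb3 3.62. Cd24a (-0.63) and Sox4 (-0.27) were not higher in the members than in Tnfrsf9-high cells, so they do not mark the members alone. T cell receptor signal genes were lower in 14 of 22 and higher in 3, among them Xcl1 (-5.48), Gadd45b (-3.68), Tagap (-3.39) and Nr4a3 (-2.96). NF-kB and TNF receptor genes were lower in 14 of 18 and higher in 1. Ikzf2, a Treg transcription factor gene, was at 266 CPM in members and 1807 CPM in Tnfrsf9-high cells (-2.76, -2.89 to -2.63). The 3 that were higher were Egr1 (2.05), its family member Egr2 (1.18) and its cofactor gene Nab2 (1.16).

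By genotype, the targeted gene was checked first. Lta, on chromosome 17 at 35203165 to 35205578, had 2 UMIs in Lta-/- members and 13 in Foxp3eGFP members, and 70 and 496 in the other Lta-/- and Foxp3eGFP cells. The cells named Lta-/- by their hashtag thus had the fewer Lta UMIs. The labels do not state which stretch of Lta is deleted, so UMIs from outside it could remain. The hashtags are numbered differently in the labels' protocol than in the feature names, and the feature names were used.

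Members made up 8.96% of the Lta-/- cells (7.81 to 10.2), 201 of 2244, and 6.56% of the Foxp3eGFP cells (5.57 to 7.68), 145 of 2209. The ratio was 1.36. More Lta-/- than Foxp3eGFP cells passed the 4 limits, 48.8% (46.7 to 50.9) against 40.3% (38.3 to 42.4). Among the cells that passed, members were 18.4% in the Lta-/- mouse (16.1 to 20.8) and 16.3% in the Foxp3eGFP mouse (13.9 to 18.9), and those intervals overlap. After thinning, the shares of all cells were 7.25% and 5.29%. Cells with 5 or more Ccr9 UMIs were 3.34% of Lta-/- cells (2.64 to 4.17) and 1.99% of Foxp3eGFP cells (1.45 to 2.66), a ratio of 1.68. For cells with 2 UMIs the shares were 2.67% and 2.26%. Whether mice of 1 genotype vary as much cannot be seen with 1 mouse each, and both classes were counted after a sort.

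**Figure D4:**
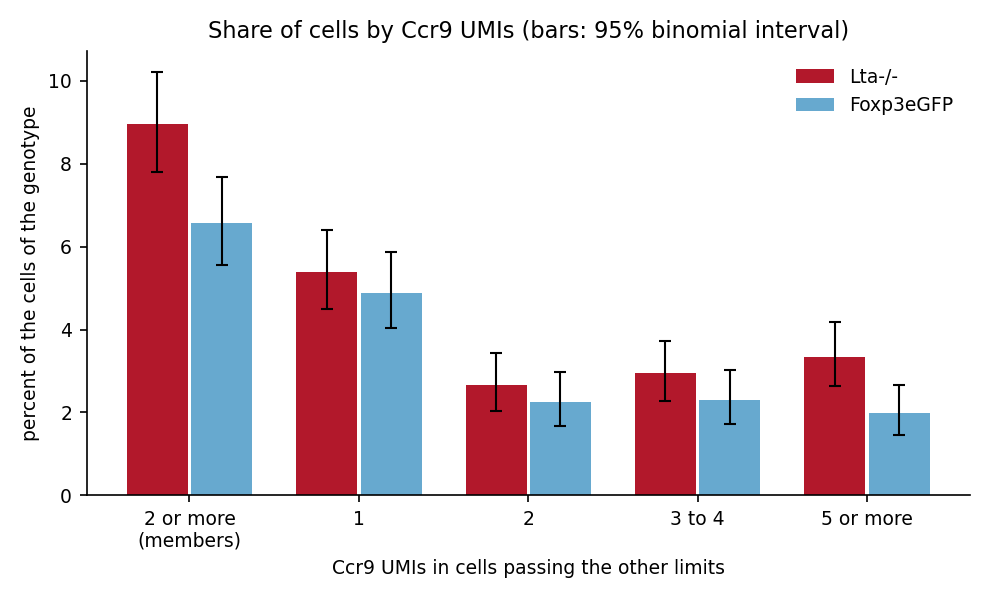
Share of the cells of each genotype (percent, bars from 0) by Ccr9 UMIs among cells passing the 4 limits, Lta-/- left of Foxp3eGFP, with exact 95% binomial intervals. The Lta-/- bar is the higher one throughout, with 3.34% against 1.99% at 5 or more Ccr9 UMIs, and its interval overlaps that of Foxp3eGFP at 1, 2, 3 to 4 and 5 or more UMIs, but not for all members together.

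Within the members, 192 of 5058 genes (3.8%) were higher in the Lta-/- mouse and 209 (4.13%) lower, with a median of all genes of 0.01. In the other cells 235 of 10576 genes (2.22%) were higher and 294 (2.78%) lower. Fewer UMIs lie behind the member ratios, which widens their scatter. Interferon response genes were the list with the most genes called, 11 of 16 lower and 0 higher. Their summed level was 2386 CPM in Lta-/- members and 4415 CPM in Foxp3eGFP members (-0.89, -0.96 to -0.81). In the other cells it was 4461 CPM in the Lta-/- mouse and 5850 CPM in the Foxp3eGFP mouse (-0.39, -0.41 to -0.38), with 7 of 19 genes lower. Ifi27l2a was at 783 CPM in Lta-/- members and 1720 CPM in Foxp3eGFP members (-1.14, -1.26 to -1.01), and its genotype ratio in the other cells was -0.41. The difference of those 2 ratios was -0.73 (-0.85 to -0.61). Isg15, an antiviral modifier gene, had a ratio of -1.03 in members and -0.77 in the other cells, a difference of -0.26 (-0.54 to 0.01). Ifit1 was at 49.3 and 147 CPM in Lta-/- and Foxp3eGFP members (-1.57) and the immunity-related GTPase gene Iigp1, which is not on the list, at 39.4 and 136 CPM (-1.78). Ifit3 (-0.26) and Igtp (-0.31) were not called.

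The interferon list differed in the same direction at each Ccr9 level, with ratios of -0.78 at 2 Ccr9 UMIs, -0.60 at 3 to 4 and -1.36 at 5 or more. It was -0.84 in members with Id2, -0.84 in members without Id2 and -0.93 without the Siglech cells. The ratio was -0.47 in Ccr9-zero cells that passed the limits, -0.36 in S1pr1-high cells and -0.30 in Tnfrsf9-high cells. Lta-/- values were thus below Foxp3eGFP values in each of these classes. Thinned members gave -0.74.

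Treg genes were the second group. Of 8 measured in members, 4 were lower in the Lta-/- mouse and 1, Gpr83 (0.68), was higher, while in the other cells 0 of 16 were called. Over all genes in members, 4.13% were lower and 3.8% higher. Ikzf2, which encodes Helios, was at 175 CPM in Lta-/- members and 392 CPM in Foxp3eGFP members (-1.17, -1.43 to -0.90), against 827 and 859 CPM in the other cells of those mice. The difference of its 2 genotype ratios was -1.11 (-1.37 to -0.85). Tnfrsf4 had ratios of -1.27 in members and -0.26 in the other cells, Tnfrsf18 -0.998 and -0.18, and Ikzf4 -1.58 and -0.17. The folate receptor gene Izumo1r was not called (0.24). The summed list was at 867 CPM in Lta-/- members and 1328 CPM in Foxp3eGFP members (-0.61, -0.74 to -0.49), and at -0.27 after thinning. Its ratio was -0.25 in members with Id2 and -1.04 in members without. It was -0.79 at 2 Ccr9 UMIs, -0.76 at 3 to 4, -0.26 at 5 or more and 0.06 in Ccr9-zero cells. Ikzf2 was at -0.59 after thinning.

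Maturation and exit genes were lower in 6 of 22 and higher in 0 in Lta-/- members, beside 4.13% lower and 3.8% higher over all genes. S1pr1 (-1.01), Klf2 (-1.01), Klf3 (-1.41), Ms4a4b (-0.91), Gimap3 (-0.62) and Igfbp4 (-0.62) were these 6. In the other cells their ratios lay between -0.15 and 0.06. For Klf2, a single member held 67 UMIs, and the genotype ratio without that cell was not taken. Of the immature list 0 of 10 were called, though Itm2a was at 0.55 (0.46 to 0.65), Cd69 at 0.49 and Lef1 at 0.34. Id2 was at 0.15 (-0.06 to 0.37). Il7r was at 0.50 (0.34 to 0.67) in members and 0.35 in the other cells. The Lta-/- members also held more cells with Id2 and with 5 or more Ccr9 UMIs, and these proportions and the genotype cannot be told apart in the ratios over all members. Nr4a1, an immediate early gene of T cell receptor signals, was at -1.42 in members and 0.05 in the other cells. Ltb, which encodes the partner of lymphotoxin alpha on the cell surface, was at 436 CPM in Lta-/- members and 558 CPM in Foxp3eGFP members (-0.36, -0.54 to -0.17). It was at -0.02 in the other cells.

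**Figure D5:**
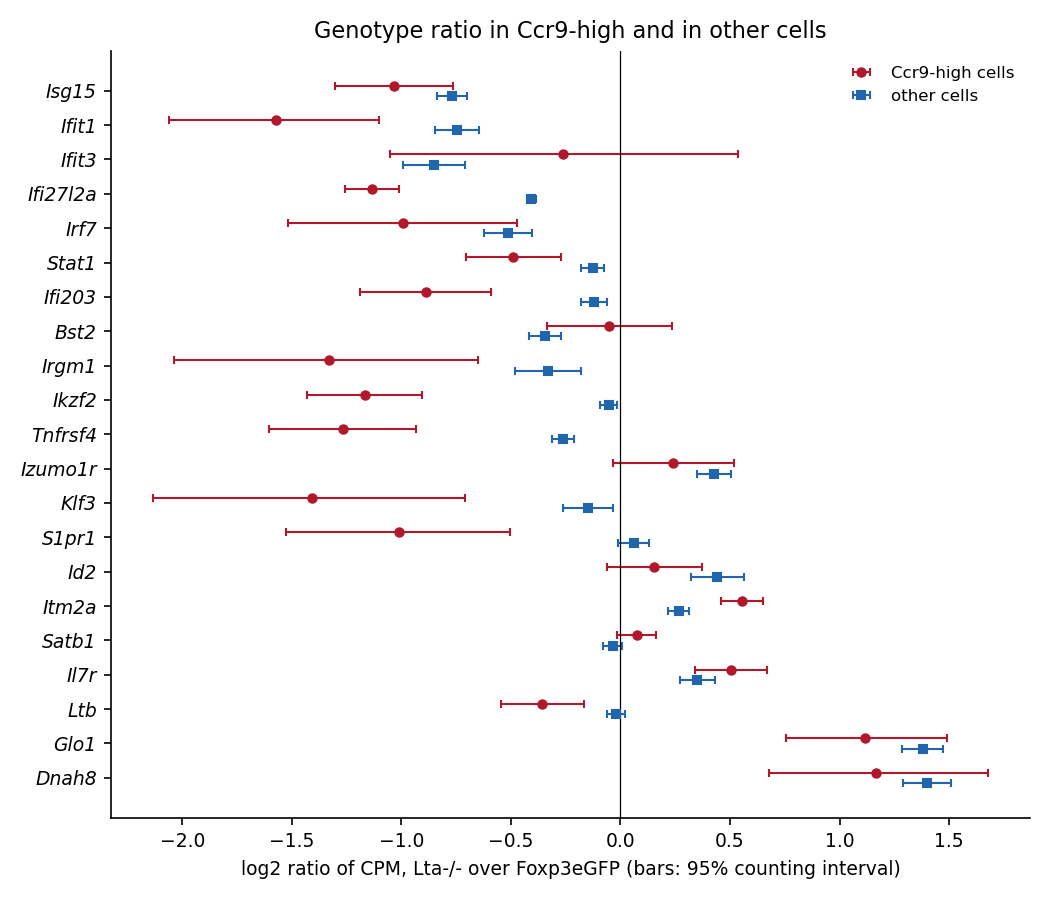
The log2 ratio of Lta-/- over Foxp3eGFP levels with 95% counting intervals for 21 genes, in Ccr9-high cells (circles) and other cells (squares), drawn from 1 mouse per genotype. Ikzf2, Tnfrsf4, Klf3, S1pr1 and Ifi27l2a have lower ratios in Ccr9-high cells, while Glo1 and Dnah8 lie to the right of 0 in both.

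Among genes with at least 50 UMIs, and 50 CPM and detection in 10% of cells in the higher class, the highest genotype ratios in members were those of Cd74 (1.58), Tcf4 (1.48) and Ctsl (1.37), and they rested on the 3 Siglech cells. Without those cells they were 0.19, 0.35 and 0.04. Next were Dnah8 (1.17, 0.68 to 1.68) and Glo1 (1.12, 0.76 to 1.49), which encode a dynein heavy chain and glyoxalase 1. Both lie on chromosome 17, 4.58 and 4.61 Mb from Lta, and both had ratios as high in the other cells, 1.40 and 1.38. Cdk2ap1 (1.14), Cd7 (1.12), Slc9a9 (1.12), Mtss1 (0.999), Lrrc58 (0.99), Polr2e (0.98) and Gng10 (0.97) completed the upper end and lay between -0.20 and 0.22 in the other cells. At the lower end, besides those named above, stood Irgm1 (-1.33), C1qtnf12 (-1.29), Chchd10 (-1.24), Slfn1 (-1.21), Slamf6 (-1.16) and Ifi208 (-1.16). For C1qtnf12 only 23 and 41 UMIs were counted in Lta-/- and Foxp3eGFP members, and its ratio was 0.21 after thinning.

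Single markers of other cell types were common in members, such as Cst3 in 43.6% and Pecam1 in 31.8%, against 45.4% and 34.6% of the other cells. The summed B and plasma cell list was at 107 CPM in Lta-/- members and 62.9 CPM in Foxp3eGFP members, and at 101 and 788 CPM in the other Lta-/- and Foxp3eGFP cells. Without the Siglech cells the B and plasma list was at 66.6 CPM in Lta-/- members. The summed CD4+CD8+ list was at 249 CPM in Lta-/- members and 308 CPM in Foxp3eGFP members, against 187 and 253 CPM in the other cells. At least 3 of its 13 genes were found in 10.1% of members and 5.55% of the other cells. For the gamma-delta T cell list that share was 0% of members (0 of 346 cells, which allows a share of up to 0.867%) and 1.24% of the other cells, with 3 of its 7 genes at 0 in members. The natural killer and innate lymphoid list, which holds Tyrobp, was at 248 CPM in Lta-/- members and 64.2 CPM in Foxp3eGFP members, against 73.7 and 80.1 CPM in the other cells of those mice, and at 45.6 CPM in Lta-/- members without the Siglech cells. The myeloid and dendritic list was at 369 CPM in Lta-/- members and 511 CPM in Foxp3eGFP members, against 279 and 273 CPM in the other cells, and at 181 CPM in Lta-/- members without the Siglech cells. A single Foxp3eGFP member held all 263 Lyz2 UMIs of the members. The part of these cells in the other results was looked at only by leaving out the Siglech cells or the cells of other types. With cells of other types left out, 174 of 4433 genes were higher and 172 lower in Lta-/- members. The ratio of member shares was then 1.32.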

How the data were processed

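Libraries were made with 10x 3' chemistry version 3.1 from 1 capture, per the labels' protocols. The deposited matrix holds raw UMI counts per gene and barcode, made by the authors with Cell Ranger 6.0.1, per the file headers and the submitters' processing notes, which also name mm10 and GRCm38. It has 4798 barcodes and 32285 genes, and 160 barcodes failed the limits on genes and mitochondrial share.

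From these counts, UMIs of the cells in a class and mouse were summed to CPM. Ratios carry exact conditional binomial intervals, shares exact Clopper-Pearson intervals and levels exact Poisson intervals. Intervals were checked on simulated counts. A zero was set against 3 counts. Thinning drew 3000 UMIs per cell and left out shallower cells, keeping 334 members (193 Lta-/- and 141 Foxp3eGFP). Doublets within a genotype were not called.

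Named genes were the 15 most extreme ratios per direction (12 by genotype) with at least 100 UMIs (50 by genotype), 50 CPM and detection in 10% of the higher class, without the rule's genes, plus members of 16 gene and 11 marker lists. The members and lists were chosen with earlier results of these data known. Counts of close paralogs (H2-Q, Ms4a4, Hist1, Cks1b) are uncertain. Alternatives were other cell filters, hashtag purity, call limits, thinning, 1 mouse alone and other cell types left out. Python 3.11.15, numpy 2.4.6, scipy 1.17.1, pandas 2.3.3 and matplotlib 3.10.9 were used.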

Additional observations from a re-analysis of the deposited data

How the results depend on the processing

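No paired analysis was possible because each genotype had 1 mouse. Counting intervals do not cover differences between mice, and genes with few UMIs in 346 cells have wide ones. The ratio of member shares, 1.36, lay between 1.13 and 1.46 under 9 alternatives. Of 550 other values by genotype, 457 stayed alike, 86 moved and 7 reversed; of 681 for members against other cells these were 441, 231 and 9.

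Against the Ccr9-zero cells, 565 genes were lower in place of 1406, and the proliferation list (0.33), Hist1h1b (0.15) and Tyms (0.56) reversed. With no UMI minimum 7212 genes were higher. A 0 was set to 3 counts. Genes with 0 UMIs in the members and few in the other cells thus scored as higher in that count. At 2-fold, 361 were higher and 822 lower. The natural killer list reversed to -0.29 when thinned, -0.51 without cells of other types, -0.53 without Siglech cells and -0.32 in the Foxp3eGFP mouse alone. The myeloid list reversed to -0.51 when thinned and the B cell list to 0.081 in the Lta-/- mouse alone.

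By genotype in the members, genes lower numbered 134 of 2568 when thinned and 130 of 2382 among members with 5 or more Ccr9 UMIs, against 209 of 5058. With at least 20 UMIs 679 were higher and 562 lower, with no minimum 2088 and 2603, and at 2-fold 23 and 36. When thinned, the CD8 list reversed to -0.24 and C1qtnf12 to 0.21. Without cells of other types the plasmacytoid list was -0.39 and the B cell list -0.012. Without Siglech cells the natural killer list was -0.49, the double-negative list -3.14 and the plasmacytoid list -0.71. The counts with no minimum include genes whose 0 was set to 3 counts. The cause of the other changes was not tested.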

Other observations

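Genotype ratios were also counted by distance from Lta on chromosome 17. Of 109 genes within 10 Mb of Lta measured in members, 9 (8.26%) were higher and 6 (5.50%) lower in the Lta-/- mouse, beside 3.55% and 4.10% of 4706 genes placed elsewhere. In the other cells, 9 of 211 (4.27%) were higher and 5 (2.37%) lower, beside 1.70% and 2.50% of 9366 elsewhere.

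On the other side of Ccr9, Fyco1 was at 31.7 CPM in members and 39.1 CPM in Ccr9-zero cells (-0.30, -0.73 to 0.10), and the chemokine receptor gene Cxcr6 at 2.60 and 13.1 CPM (-2.33, -3.99 to -1.06), so the high ratio at Lztfl1 was not shared by these neighbours.

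Among ligands of the tumour necrosis factor family, the members had more Tnfsf11, which encodes RANKL, than Ccr9-zero cells (0.72), and less Ltb (-0.74).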
